A study of Mus musculus with 6 samples.

Results

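The expression of genes that encode translation factors was compared between MA-10 and STARKO1 cells. The genes were the protein-coding rows of the deposited count table whose symbols begin with Eif1 to Eif6, Eef1, Eef2 or Gspt, together with Etf1 and without Eif2ak3. The choice rests on gene symbols, but it was made with earlier results of these data known, and 64 of the 14774 genes in the table met it. MA-10 is a mouse tumor Leydig cell line, and the MA-10 group was wild type and untreated (3 libraries). STARKO1 is a STAR knockout line derived from MA-10 cells and was also untreated (3 libraries). It is 1 clone, grown from a single sorted cell after transfection with plasmids that carried Cas9 and guide RNAs against Star exon 2, so the loss of Star and other features of this clone cannot be told apart. The stranded library kit took total RNA as its input. The labels do not say whether libraries 1 to 3 of a line came from separate cultures, so p-values measure only the spread between these libraries, which may be technical.

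Protein synthesis begins when a ternary complex of eIF2, GTP and initiator tRNA joins the small ribosomal subunit with eIF1, eIF1A, eIF3 and eIF5. The mRNA is brought to this subunit by eIF4E, which binds the cap, the scaffold eIF4G and the helicase eIF4A, and the subunit then scans for a start codon. Elongation factors eEF1A and eEF2 deliver aminoacyl-tRNA and move the ribosome along the mRNA, and the release factors end the chain. The step is regulated through phosphorylation of eIF2, which blocks its exchange factor eIF2B, and through proteins that hold eIF4E away from eIF4G. In Leydig cells, steroid production after hormone stimulation depends on newly made protein, STAR among them.

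Total counts lay between 14114351 and 19530062 per library, and 3 counts corresponded to between 0.129 and 0.264 CPM. CPM stands for the count scaled to the TMM-adjusted library size. The TMM factors were 1.16, 0.654 and 0.805 in MA-10 replicates 1, 2 and 3. In the STARKO1 replicates they were 1.19, 1.18 and 1.17. The order of the libraries in CPM can therefore depend on this scaling. The targeted gene, Star, had 1064, 1261 and 697 counts in MA-10 replicates 1, 2 and 3, against 48, 46 and 36 counts in the STARKO1 replicates, and the fold change on the log2 scale was -5.09 (standard error, SE, 0.33, adjusted p = 0.00121). All 11 Leydig cell markers examined were above 1 CPM on average over the libraries, with summed levels of 2155 to 2859 CPM in MA-10 and 1739.8 to 1821 CPM in STARKO1 cells. The markers did not share a direction, and of them only Star and Hsd3b1 had an adjusted p under 0.05 in edgeR's quasi-likelihood test. Mean levels in MA-10 and STARKO1 cells were 29.8 and 5.19 CPM for Hsd3b1 (adjusted p = 0.00268) and 835 and 439 CPM for Cyp11a1 (adjusted p = 0.0670). They were 3.58 and 8.57 CPM for Cyp17a1 (adjusted p = 0.0949) and 472 and 633 CPM for Nr5a1 (adjusted p = 0.189). Of 6 Sertoli cell markers, Sox9, Amh, Wt1 and Fshr were not among the rows of the table. The same held for 3 of 4 germ cell, 3 of 5 macrophage, 2 of 4 endothelial and 2 of 4 peritubular cell markers. Sertoli markers that were present were Dhh, at 16.9 to 20.2 CPM over all libraries, and Gata1. Gata1 was at 2.82 to 5.61 CPM in MA-10 and 8.13 to 9.83 CPM in STARKO1 cells (log2 fold change 1.09, adjusted p = 0.0564 in the same test). The germ cell marker Ddx4 was at 1.91 to 3.55 CPM and the macrophage marker Csf1r at 4.60 to 9.68 CPM. The endothelial sum was 26.4 to 41.5 CPM in MA-10 and 118 to 124 CPM in STARKO1 cells, nearly all of it from Cdh5, and the peritubular sum was at most 20.5 against at most 2.59 CPM, mostly from Des. The part of these markers in the results was not tested.

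MA-10 replicate 1 stood apart from replicates 2 and 3 and was nearer to the STARKO1 libraries than to the mean of the other two MA-10 libraries for 52 of 62 tested translation factor genes (83.9%), against 69.7% of all 11939 tested genes. The median range between the 3 libraries of a line was 0.88 on the log2 scale in MA-10 and 0.10 in STARKO1 cells for the translation factor genes, and 0.77 and 0.17 for all tested genes. In MA-10 cells the libraries spanned more than 1 on the log2 scale for 26 of the 62 genes, and in STARKO1 cells for 0 genes. Other transcripts moved with the same libraries. Ribosomal protein genes took 4.61%, 8.62% and 7.78% of all reads counted in the MA-10 replicates (in the order 1, 2, 3) and 4.23% to 4.41% in STARKO1 cells, and the noncoding 7SL RNA took 1.81%, 14.4% and 6.63% against 1.82% to 2.37%. Their part in the values below was not tested. The number of genes that passed is therefore also given without MA-10 replicate 1 for each role group. In that fit 65.7% of all tested genes passed. All genes reached 37.6% at an unadjusted p under 0.05 and 22.7% with DESeq2, and counts by group are to be read beside these shares.

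Of the 64 translation factor genes, 62 had enough counts to be tested with edgeR's quasi-likelihood test, in which p-values were adjusted over all 11939 tested genes. At an adjusted p under 0.05, 3 of the 62 were differentially expressed (4.84%), 0 higher and 3 lower in STARKO1 cells. The share among all tested genes was 9.04%, with 4.3% higher and 4.74% lower. The 3 genes were Eif1b, a paralogue of the start codon selection factor eIF1, Eif4ebp1, an inhibitor of eIF4E, and Eef2kmt, a lysine methyltransferase of eEF2. In this bulk RNA, a smaller share of cells that express a gene and less RNA per cell cannot be told apart. The median log2 fold change of the 62 genes was -0.24, against -0.05 for all tested genes. With libraries scaled by size alone these medians were 0.24 and 0.38. The median of the group thus changed sign with the scaling and was below that of all genes with either scaling. With MA-10 replicate 1 as the lone MA-10 library the medians were 0.14 and 0.0030, so the group was then above all genes.

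The other 59 tested genes did not pass the threshold, and for many of them the spread of the MA-10 libraries exceeded the difference between the lines. Before adjustment, 26 of the 62 genes had a p under 0.05, 11 higher and 15 lower, against 37.6% of all tested genes. The 3 libraries of one line all lay above the 3 of the other for 25 genes, 13 with higher and 12 with lower values in STARKO1 cells, against 42.5% of all tested genes (21.5% higher and 21% lower). With DESeq2, 16 of 64 genes passed, 7 higher and 9 lower, against 22.7% of all genes it tested (8.65% higher and 14% lower). Without MA-10 replicate 1, 45 of 62 genes passed, 17 higher and 28 lower, against 65.7% of 12167 genes (34% higher and 31.7% lower). With MA-10 replicate 1 as the lone MA-10 library, which is then assumed to vary like the STARKO1 libraries, 35 of 62 passed, 26 higher and 9 lower, against 40.5% of 12565 genes (19.9% higher and 20.6% lower). These alternative comparisons share the STARKO1 libraries. The share of translation factor genes that passed was below that of all genes in the edgeR test of all libraries and above it with DESeq2 and in both of these comparisons.

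**Figure D1:**
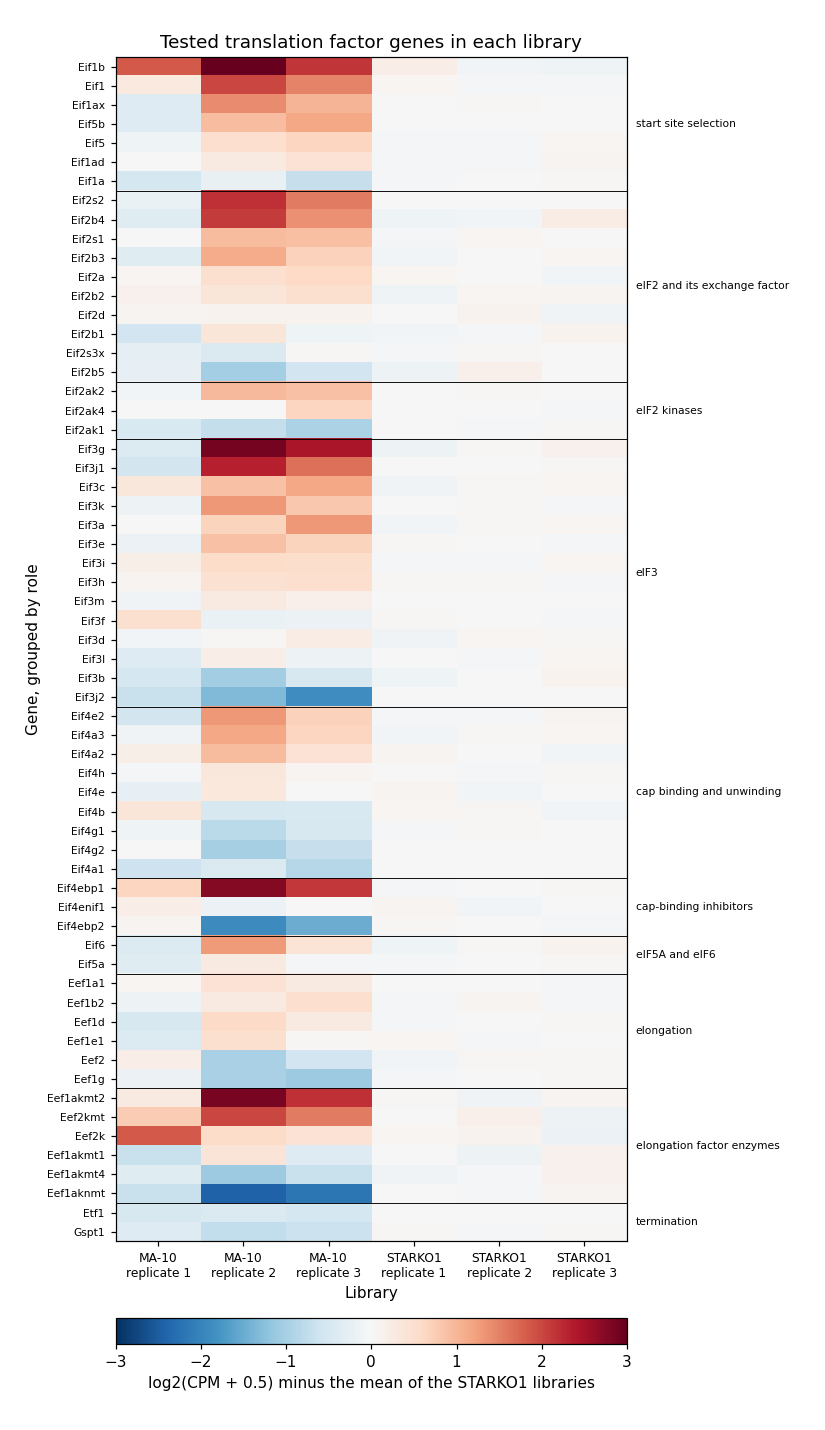
Each row is 1 of the 62 tested translation factor genes, grouped by role, and each column is 1 library. Colour shows log2(CPM + 0.5) minus the mean of the 3 STARKO1 libraries, with values beyond 3 drawn in the end colours, and the deep colours lie mainly in MA-10 replicates 2 and 3.

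Among the 7 genes of start site selection, Eif1b was lower in STARKO1 cells and 6 genes did not pass. eIF1 keeps the scanning ribosome from starting at the wrong codon, and Eif1b encodes another form of it. Eif1b (chr9:120492232-120495331, plus strand, GRCm38) was measured at 4.30, 10.8 and 5.37 CPM in MA-10 replicates 1, 2 and 3 and at 1.03, 0.766 and 0.730 CPM in the STARKO1 replicates, from 61 to 124 and from 13 to 24 counts. All MA-10 libraries lay above all STARKO1 libraries, and replicate 1 was the lowest of the MA-10 libraries. The mean was 6.81 ± 3.46 CPM (SD, n = 3) in MA-10 and 0.843 ± 0.165 CPM (SD, n = 3) in STARKO1 cells, a log2 fold change of -2.98 (SE 0.43, adjusted p = 0.0129). Eif1b passed in 9 of 9 alternatives that kept all libraries, with adjusted p up to 0.0371 in them. When a single library was removed at a time, it passed in 2 of 6 fits, with a log2 fold change between -3.13 and -2.49. It did not pass without MA-10 replicate 3 (adjusted p = 0.0563) or without STARKO1 replicate 1, 2 or 3 (adjusted p = 0.0719, 0.0854 and 0.0894). In those fits 1.49%, 0.730%, 1.11% and 0.760% of all tested genes passed, in the same order, against 9.04% with all libraries.

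**Figure D2:**
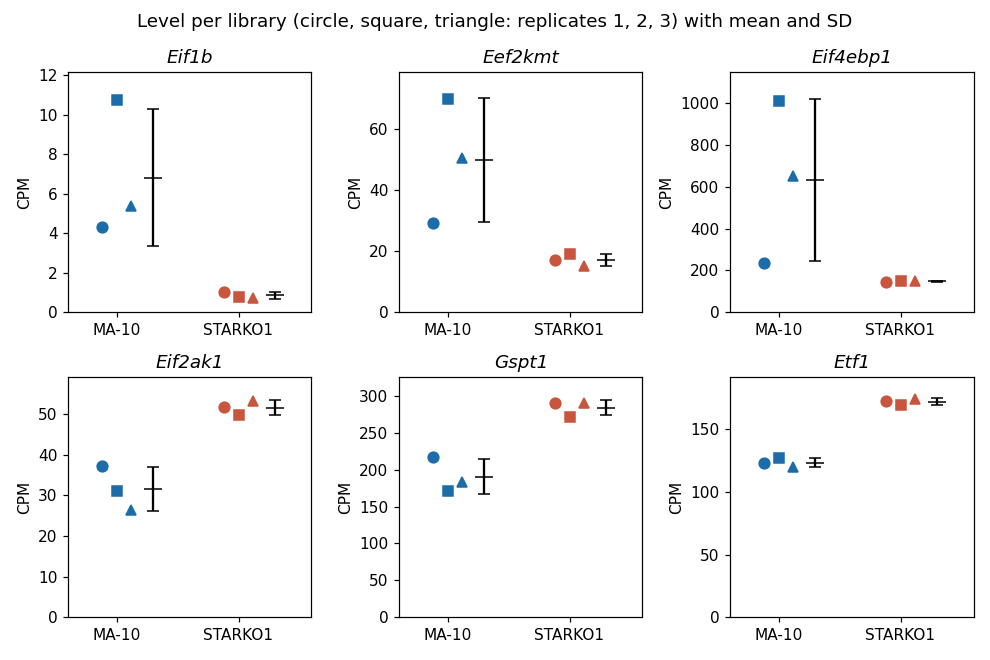
Each panel shows 1 gene, with CPM per library on a linear axis from 0, circles, squares and triangles for replicates 1, 2 and 3 and bars for the mean and SD of 3 libraries. The upper panels hold the 3 genes that were lower in STARKO1 cells, and the lower panels hold Eif2ak1, Gspt1 and Etf1, whose libraries did not overlap between the lines but which did not pass the threshold.

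Eif1 (chr11:100319885-100322097, plus strand), the main gene for eIF1, was measured at 251, 829 and 572 CPM in MA-10 and 215, 200.3 and 201 CPM in STARKO1 cells. MA-10 replicate 1 was close to the STARKO1 libraries and the others were well above them, and the log2 fold change of -1.42 did not pass (SE 0.41, adjusted p = 0.0678). With DESeq2 it passed (adjusted p = 0.00898). The coding sequences of both genes have 342 bases, of which 278 are identical (81.3%), with a longest shared run of 25 bases. The first 120 coding bases are shown because reads of the pair can be told apart only at the bases in capitals, 19 positions at which the genes differ in this stretch. The coordinates span the introns between the coding exons (GENCODE transcripts on GRCm38, both on the plus strand).
Eif1, chr11:100320130-100320754: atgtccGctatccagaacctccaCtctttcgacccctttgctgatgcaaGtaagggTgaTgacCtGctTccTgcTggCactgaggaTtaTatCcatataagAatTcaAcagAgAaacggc
Eif1b, chr9:120492811-120494195: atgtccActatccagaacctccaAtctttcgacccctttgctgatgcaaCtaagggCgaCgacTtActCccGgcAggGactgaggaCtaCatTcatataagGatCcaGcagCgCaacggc

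Eif1b made up 1.68%, 1.28% and 0.930% of the Eif1 and Eif1b counts in MA-10 replicates 1, 2 and 3, against 0.477%, 0.381% and 0.363% in the STARKO1 replicates. Its share in the pair was therefore lower in every STARKO1 library, and MA-10 replicate 1 had the highest share. eIF1A, which holds the ribosome open for scanning, is encoded by Eif1a and Eif1ax. Eif1ax was measured at 129.7, 456 and 344 CPM in MA-10 and 169 to 173 CPM in STARKO1 cells, giving a log2 fold change of -0.86 (SE 0.42, adjusted p = 0.179). MA-10 replicate 1 lay below the STARKO1 libraries and the other two above them, and the fold change was -1.14 without that library and 0.40 with it alone. Eif1a was measured at 23.3, 29.1 and 20.96 CPM against 32.9 to 34.5 CPM, with no overlap between the lines and a log2 fold change of 0.47 (SE 0.17, adjusted p = 0.102).

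The remaining factors of this step did not pass. Eif5b, the GTPase that joins the ribosomal subunits, was at 316, 795 and 924 CPM in MA-10 and 409.9 to 419.7 CPM in STARKO1 cells. Eif5, which makes eIF2 hydrolyse its GTP, was at 174, 271 and 297 against 185 to 198 CPM, and Eif1ad, which encodes a protein with an eIF1A-like domain, at 67.6, 82.1 and 92.6 against 66.1 to 72.5 CPM. In each of the 3 genes the highest MA-10 library was replicate 3 and replicate 1 lay within or below the STARKO1 range. Without MA-10 replicate 1, 6 of the 7 genes of this group passed, 1 higher and 5 lower, against 65.7% of all genes.

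None of the 10 genes of eIF2, its exchange factor eIF2B and the related factors Eif2a and Eif2d passed with edgeR. Of them, 4 differed at an unadjusted p under 0.05 (37.6% of all genes) and 1 passed with DESeq2, lower (22.7% of all genes). Eif2s2, the beta subunit of eIF2, was measured at 445, 2361 and 1515 CPM in MA-10 and 514, 516 and 509.7 CPM in STARKO1 cells. The lowest and the highest MA-10 library differed 5.31-fold, while the STARKO1 libraries were nearly equal. Its log2 fold change was -1.49 (SE 0.55, adjusted p = 0.103), -1.82 without MA-10 replicate 1 and 0.21 with that library alone. Eif2s1, the alpha subunit that the stress kinases phosphorylate, was at 158, 299.9 and 294 CPM against 151 to 161 CPM. Eif2s3x, the X-linked gamma subunit, was at 229.8, 209.7 and 287 CPM against 274 to 287 CPM, and its lines overlapped (log2 fold change 0.22, SE 0.19, adjusted p = 0.406).

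The 5 subunit genes of eIF2B, the enzyme that recharges eIF2 with GTP, did not share a direction. Eif2b5, the catalytic epsilon subunit, was measured at 75.6, 44.2 and 60.2 CPM in MA-10 and 80.3, 99.5 and 89.7 CPM in STARKO1 cells. The lines did not overlap, and the log2 fold change of 0.58 did not pass (SE 0.23, adjusted p = 0.115). Eif2b4, the delta subunit, was at 26.2, 147 and 89.4 CPM against 31.1 to 39.5 CPM, so its MA-10 libraries lay on both sides of the STARKO1 range. Eif2b3 was at 21.9, 62.8 and 46.5 against 27.1 to 29.7 CPM and Eif2b1 at 28.6, 55.2 and 39.5 against 40.8 to 46.2 CPM, and in both replicate 1 was the lowest of the 6 libraries. Eif2b2 was at 20.7, 24.4 and 26.5 against 17.2 to 20.1 CPM, with all MA-10 libraries above all STARKO1 libraries. Eif2d and Eif2a encode factors that can bring initiator tRNA without eIF2. Eif2d was at 34.1 to 34.4 CPM in MA-10 and 29.5 to 34.4 CPM in STARKO1 cells, and Eif2a at 28.2 to 41.7 against 25.6 to 28.5 CPM. Once MA-10 replicate 1 was removed, 7 of these 10 genes passed, 1 higher and 6 lower, against 65.7% of all genes.

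Eif2ak1, the heme-regulated kinase of eIF2 alpha, was the gene nearest to the threshold among those that did not pass. It was measured at 37.1, 30.96 and 26.5 CPM in MA-10 and 51.7, 49.6 and 53.2 CPM in STARKO1 cells. Every STARKO1 library was above every MA-10 library, and MA-10 replicate 1 was nearest to them. The log2 fold change was 0.71 (SE 0.17, adjusted p = 0.0513). It passed in 3 of 9 alternatives with all libraries, DESeq2, protein-coding rows only and gene length offsets, and of the fits that left out 1 library it passed in the one without MA-10 replicate 1 (0.93). For comparison, the member just inside the threshold was Eif4ebp1 with an adjusted p of 0.0483. Eif2ak2, the kinase PKR that responds to double-stranded RNA, was at 42.95, 90.03 and 84.4 CPM in MA-10 and 44.7 to 46.2 CPM in STARKO1 cells, giving a log2 fold change of -0.67 (SE 0.28, adjusted p = 0.132). Its MA-10 replicate 1 lay below the STARKO1 libraries and its other MA-10 libraries above them. Eif2ak4, the kinase GCN2 that responds to lack of amino acids, was at 37.8, 37.99 and 59.3 against 36.9 to 38.3 CPM. Of the 3 kinases, none passed with edgeR and 2 differed at an unadjusted p under 0.05 (37.6% of all genes). Eif2ak1 passed with DESeq2 (22.7% of all genes). With edgeR but without MA-10 replicate 1, Eif2ak1 passed as higher and Eif2ak2 as lower, against 65.7% of all genes.

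**Figure D3:**
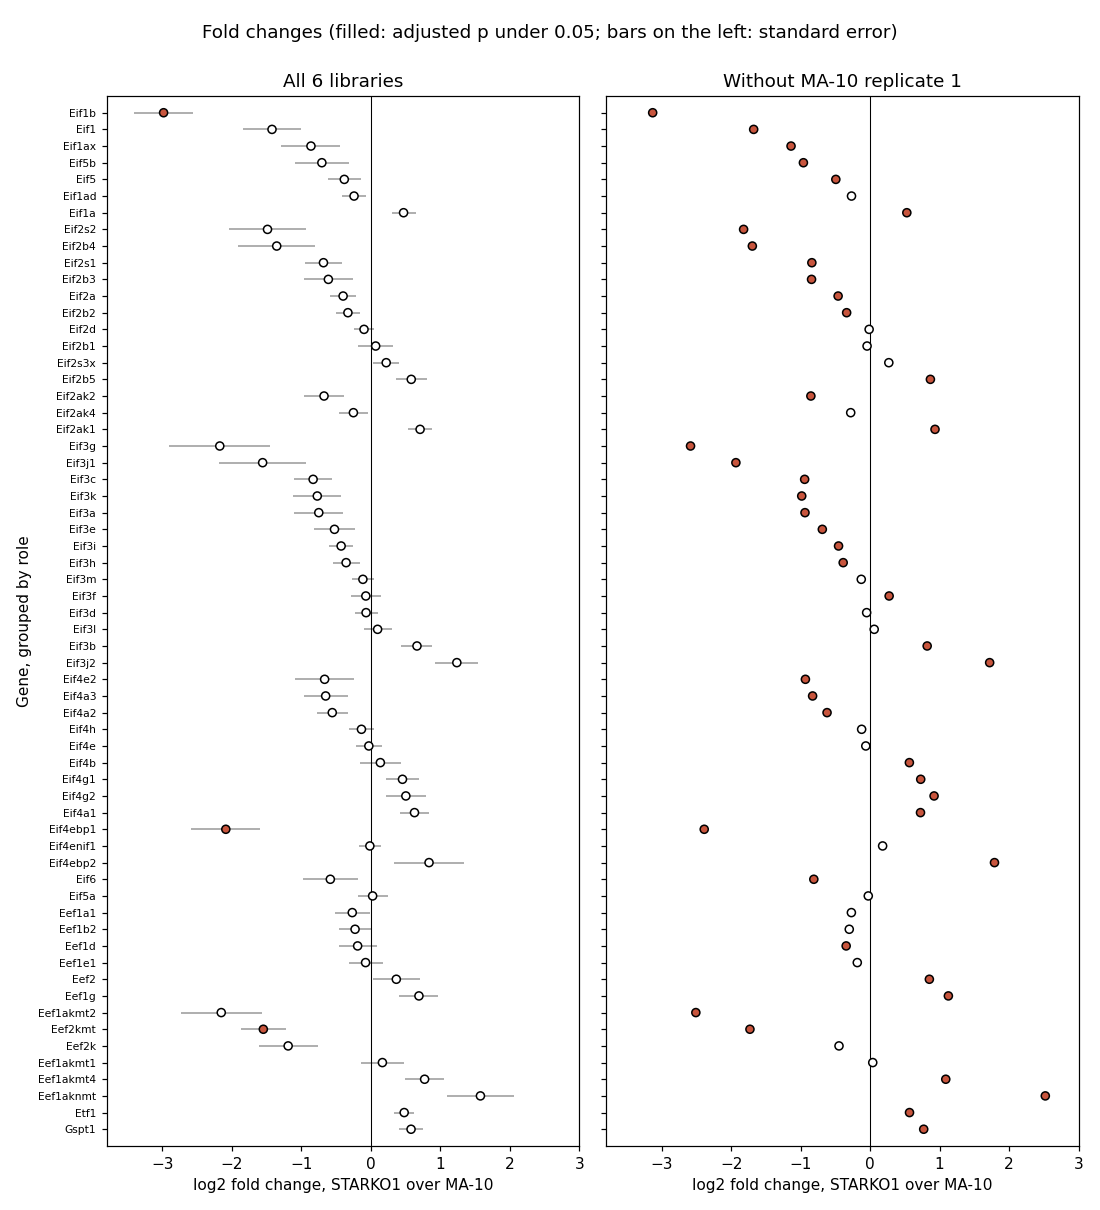
Points are log2 fold changes of STARKO1 over MA-10 for the 62 tested genes, with all 6 libraries on the left and without MA-10 replicate 1 on the right. Filled points have an adjusted p under 0.05 in edgeR's quasi-likelihood test, 3 on the left and 45 on the right, and bars on the left are standard errors.

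Of the 14 genes for eIF3, the large scaffold on the small ribosomal subunit, 0 passed with edgeR. At an unadjusted p under 0.05, 6 differed (37.6% of all genes), and 5 passed with DESeq2, 2 higher and 3 lower (22.7% of all genes). Eif3g, an RNA-binding subunit, was measured at 138, 1351 and 1006 CPM in MA-10 and 166, 187 and 199.7 CPM in STARKO1 cells. MA-10 replicate 1 was the lowest of all 6 libraries, and the highest MA-10 library was 9.78-fold above it, the widest span among the tested translation factor genes. The log2 fold change was -2.18 (SE 0.73, adjusted p = 0.0858), -2.58 without MA-10 replicate 1 and 0.41 with that library alone. Eif3c, a core subunit, was at 907, 1327 and 1616 against 673 to 755 CPM, and Eif3a, the largest subunit, at 819, 1319 and 2047 against 787 to 857 CPM. All MA-10 libraries exceeded all STARKO1 libraries for Eif3c, Eif3h and Eif3i but not for Eif3a. Eif3b, another core subunit, went the other way, at 356, 248 and 367 CPM in MA-10 and 471, 511 and 554 CPM in STARKO1 cells without overlap.

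Eif3j1 and Eif3j2 encode the loosely attached j subunit, and their coding sequences were identical over all 786 aligned bases. The split of reads between these 2 genes is therefore uncertain. Eif3j1 was listed at 62.1, 455 and 285 CPM in MA-10 and 89.5 to 92.5 CPM in STARKO1 cells, giving a log2 fold change of -1.56 (SE 0.62, adjusted p = 0.120). Eif3j2 was listed at 16.4, 10.2 and 6.87 CPM against 26.03 to 26.8 CPM, with a log2 fold change of 1.24 (SE 0.31, adjusted p = 0.0530). The 2 genes differed in sign, which their sum cannot show. Summed into 1 gene, a choice made after the values were seen, they were at 78.5, 465 and 292 CPM in MA-10 and 116 to 119 CPM in STARKO1 cells, giving a log2 fold change of -1.25 (SE 0.56, adjusted p = 0.152).

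Of the other eIF3 genes, Eif3e was at 298, 626 and 535 against 329.7 to 344 CPM and Eif3k at 50.97, 139 and 99.5 against 55.4 to 57.9 CPM, in both with replicate 1 the lowest library. Eif3h was at 319.7, 411 and 429 against 288 to 309.6 CPM and Eif3i at 116, 152 and 150.3 against 101 to 108 CPM. Eif3d, Eif3l and Eif3m ranged over 145 to 179, 161 to 244 and 97.4 to 128 CPM in MA-10 cells, and the STARKO1 libraries lay at 142 to 159, 207 to 219 and 105 to 106 CPM. Eif3f was at 122, 76.3 and 77.3 against 85.6 to 89.5 CPM, and here MA-10 replicate 1 was the highest library. Without MA-10 replicate 1, 11 of the 14 genes passed, 3 higher and 8 lower in STARKO1 cells, against 65.7% of all genes.

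Levels were compared between subunit genes per length, as CPM per kb of merged exons. Merged exons hold every annotated exon of a gene, 1612 bases for Eif3h and 6719 for Eif3e, and can exceed the transcript expressed. The order therefore depends on the annotation as well as on the RNA level. In STARKO1 cells the order of the mean levels began with Eif3c (192 to 215 over the 3 libraries), Eif3h (179 to 192) and Eif3b (141 to 166), and the libraries of Eif3c and Eif3h overlapped. Eif3a (90.1 to 98.1) and Eif3g (83.5 to 101) followed and also overlapped. Eif3l (56.8 to 60.3), Eif3e (49.1 to 51.2) and Eif3m (40.4 to 40.99) came next without overlap. The libraries of Eif3d (28.5 to 31.99) overlapped those of both Eif3f (29.6 to 30.96) and Eif3i (27.4 to 29.05), and Eif3k (20.5 to 21.5), Eif3j1 (15.4 to 15.9) and Eif3j2 (10.9 to 11.3) were lowest. In MA-10 cells Eif3g was at 69.7, 681 and 507 CPM per kb in replicates 1, 2 and 3. It was thus the highest eIF3 gene in replicates 2 and 3 and lay below Eif3c, Eif3h, Eif3b and Eif3a in replicate 1, as in the STARKO1 means.

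**Figure D4:**
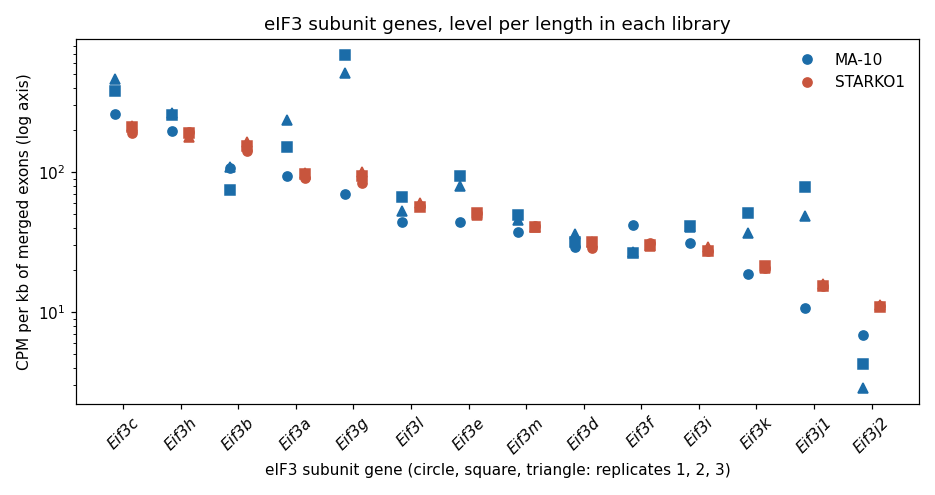
CPM per kb of merged exons (log axis) is shown for the 14 eIF3 genes in the order of their STARKO1 mean, with circles, squares and triangles for replicates 1, 2 and 3. The STARKO1 libraries coincide for most genes, while MA-10 replicates 2 and 3 lie far above replicate 1 for Eif3g and Eif3j1.

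Levels per length were also compared within the other complexes, with the same reservation on annotated exons. Of eIF2, Eif2s2 was at 75.5 to 76.4, Eif2s3x at 71.99 to 75.4 and Eif2s1 at 30.5 to 32.6 CPM per kb in STARKO1 cells, and the first 2 lay next to each other without overlap. In MA-10 cells Eif2s2 was at 65.8, 349 and 224 CPM per kb, above Eif2s3x at 60.3, 55.001 and 75.3 in each replicate. Of eIF2B, Eif2b5 was highest in the STARKO1 libraries (30.9 to 38.3) and Eif2b3 lowest (4.16 to 4.56), whereas Eif2b4 reached 10.1, 56.7 and 34.4 CPM per kb in MA-10 replicates 1, 2 and 3 and was the highest in replicates 2 and 3. Eef1a1 was far above the genes of its exchange factor, at 1193 to 1236 CPM per kb in STARKO1 cells, against 219 to 238 for Eef1b2, 168 to 175 for Eef1g and 20.6 to 22.3 for Eef1d.

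Of the 10 genes of cap binding and unwinding, 9 were tested and 0 passed with edgeR. At an unadjusted p under 0.05, 2 differed (37.6% of all genes), and 1 passed with DESeq2, higher (22.7% of all genes). Eif4a1 and Eif4a2 encode alternative forms of the helicase eIF4A. Eif4a1 was measured at 462, 526 and 391 CPM in MA-10 and 706, 712 and 713 CPM in STARKO1 cells (log2 fold change 0.63, SE 0.20, adjusted p = 0.0806). Eif4a2 was at 82.6, 141 and 98.6 CPM against 76.7, 73.04 and 69.3 CPM (log2 fold change -0.56, SE 0.22, adjusted p = 0.122). Neither gene overlapped between the lines, and they lay in opposite directions. Eif4a2 made up 15.2%, 21.1% and 20.1% of the counts of the pair in MA-10 replicates 1, 2 and 3, against 9.81%, 9.31% and 8.85% in the STARKO1 replicates. The difference in this share was seen in MA-10 replicate 1 too, although it was smaller there. The coding sequences of the pair are 78.6% identical, with a longest shared run of 20 bases. Eif4a3, a relative that sits on spliced mRNA, was at 141, 339 and 239.96 against 145 to 158 CPM.

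Among the scaffolds, Eif4g1 was measured at 571, 357 and 449 CPM in MA-10 and 608, 640.1 and 638 CPM in STARKO1 cells (log2 fold change 0.45, SE 0.23, adjusted p = 0.189). Eif4g2, a form without the eIF4E-binding part, was at 539, 272 and 337 against 543, 541 and 542 CPM (log2 fold change 0.50, SE 0.28, adjusted p = 0.228). In both genes MA-10 replicate 1 was just below the STARKO1 libraries and the other replicates were further below. Eif4g3 had 6 to 14 counts per library and was not tested. The cap-binding protein gene Eif4e was at 74.5, 111 and 87.7 CPM against 94.8, 84.5 and 87.8 CPM, with a log2 fold change of -0.03 (SE 0.19, adjusted p = 0.915), and its sign changed with the scaling. Eif4e2, a relative of eIF4E that represses translation, was at 128, 459.6 and 298 against 179.8 to 197 CPM (log2 fold change -0.67, SE 0.43, adjusted p = 0.278). The helicase partners Eif4b and Eif4h were at 1427, 791 and 797 and 256, 332 and 275 CPM in MA-10 cells, and at 1039 to 1145 and 256 to 269.96 CPM in STARKO1 cells. When MA-10 replicate 1 was left out, 7 of the 9 genes passed, 4 higher and 3 lower, against 65.7% of all genes.

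Eif4ebp1, which encodes 4E-BP1, was lower in STARKO1 cells. 4E-BP1 competes with eIF4G for eIF4E and lets go when the kinase mTORC1 phosphorylates it. Eif4ebp1 (chr8:27260329-27276675, plus strand) was measured at 235, 1012 and 652 CPM in MA-10 replicates 1, 2 and 3 and at 146, 149 and 152 CPM in the STARKO1 replicates. The lines did not overlap, and MA-10 replicate 1 was much nearer to the STARKO1 libraries than the others. The mean was 633 ± 389 CPM (SD, n = 3) in MA-10 and 149 ± 2.75 CPM (SD, n = 3) in STARKO1 cells, a log2 fold change of -2.09 (SE 0.50, adjusted p = 0.0483). The call was close to the threshold. It held in 3 of 9 alternatives that kept every library and in 1 of 6 fits with a library removed, the one without MA-10 replicate 1 (-2.39). Without any other library the adjusted p was between 0.0916 and 0.199. In those fits between 0.730% and 4.19% of all tested genes passed, against 9.04% with all libraries. With MA-10 replicate 1 alone the log2 fold change was -0.66.

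Eif4ebp2, the gene for another 4E-BP, was measured at 63.9, 15.7 and 21.3 CPM in MA-10 and 61.6, 60.5 and 58.7 CPM in STARKO1 cells. MA-10 replicate 1 was above the STARKO1 libraries and the other replicates well below, and the log2 fold change of 0.84 did not pass (SE 0.50, adjusted p = 0.250). Eif4ebp2 made up 21.4%, 1.53% and 3.17% of the counts of both genes in MA-10 replicates 1, 2 and 3, against 27.9% to 29.6% in STARKO1 cells. Its share was lower in all MA-10 libraries, most of all in replicates 2 and 3. Eif4enif1, which encodes a protein that carries eIF4E into the nucleus, was at 99.5, 76.2 and 85.6 against 81.9 to 91.2 CPM. Of these 3 genes, Eif4ebp1 passed as lower and Eif4ebp2 as higher without MA-10 replicate 1, against 65.7% of all genes.

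**Figure D5:**
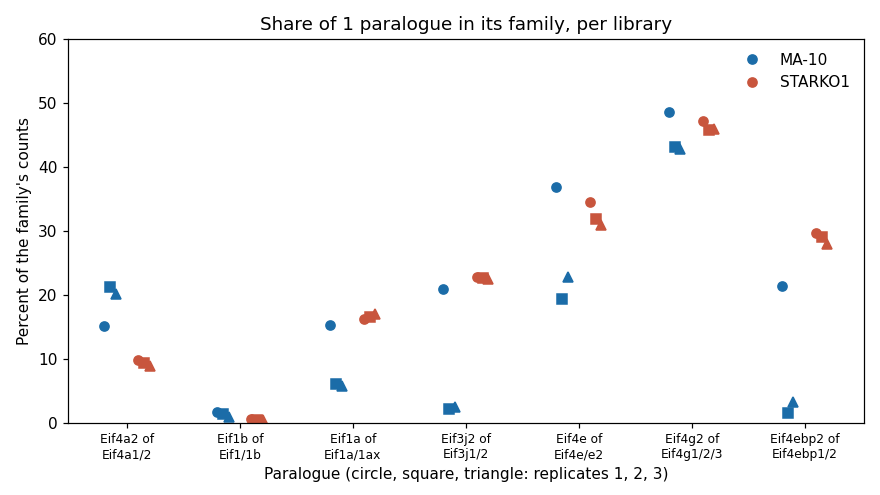
The share of 1 paralogue in the counts of its pair or family is shown in percent per library, with circles, squares and triangles for replicates 1, 2 and 3. Eif4a2 and Eif1b have lower shares in all STARKO1 libraries than in all MA-10 libraries, and for Eif1a, Eif3j2 and Eif4ebp2 MA-10 replicate 1 lies near the STARKO1 libraries.

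The remaining pairs showed the same separation of MA-10 replicate 1. Eif1a made up 15.2%, 6.004% and 5.74% of the Eif1a and Eif1ax counts in MA-10 replicates 1, 2 and 3, against 16.3% to 16.99% in STARKO1 cells. Eif3j2 made up 20.9%, 2.19% and 2.36% of its pair against 22.5% to 22.7%, with the reservation on reads given above. Eif4e made up 36.8%, 19.4% and 22.7% of the Eif4e and Eif4e2 counts against 30.9% to 34.5%, and here MA-10 replicate 1 lay above all STARKO1 libraries. Eif4g2 made up 48.6%, 43.1% and 42.8% of the Eif4g counts against 45.8% to 47.1%. Shares do not depend on how libraries are scaled. Eef1a2, Eif5a2, Eif2s3y, Eif4e3, Eif4ebp3 and Gspt2, the partners of other members, were not among the rows of the table and were not analysed here.

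Eif5a and Eif6 act outside the main initiation steps, and 0 of the 2 passed with edgeR, at an unadjusted p under 0.05 or with DESeq2. Of all genes, 9.04%, 37.6% and 22.7% did, in the same order. eIF5A, which carries the modified amino acid hypusine, helps ribosomes past difficult stretches, and Eif5a was at 273, 421 and 343 CPM in MA-10 and 339 to 363 CPM in STARKO1 cells (log2 fold change 0.02, SE 0.21, adjusted p = 0.939). eIF6 keeps the large ribosomal subunit from joining too early, and Eif6 was at 56.2, 182 and 99.7 against 68.8 to 80.2 CPM (log2 fold change -0.58, SE 0.40, adjusted p = 0.303). In both genes MA-10 replicate 1 was the lowest of the 6 libraries in CPM and MA-10 replicate 2 the highest. For Eif5a this order depends on the TMM scaling. With edgeR but without MA-10 replicate 1, Eif6 passed as lower (log2 fold change -0.81, adjusted p = 0.0105) and Eif5a did not pass. In that fit 65.7% of all genes passed.

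Of the 6 elongation factor genes, 0 passed with edgeR or with DESeq2, and 1 differed at an unadjusted p under 0.05 (37.6% of all genes). Eef1a1 and Eef2 together took 31.5%, 20.9% and 21.7% of the counts of all 64 translation factor genes in MA-10 replicates 1, 2 and 3, against 28.2% to 28.6% in STARKO1 cells. Eef1a1, which delivers aminoacyl-tRNA to the ribosome, was at 3179.96, 4139 and 3676 CPM in MA-10 and 3070.3, 3082 and 2975 CPM in STARKO1 cells. The lines did not overlap, but the difference was small (log2 fold change -0.27, SE 0.25, adjusted p = 0.444) and changed sign to 0.21 when libraries were scaled by size alone. Eef2, which moves the ribosome by a codon, was at 2158, 947 and 1252 against 1774, 1913 and 1926 CPM, with replicate 1 above and the other MA-10 replicates below the STARKO1 libraries. Eef1g, a subunit of the eEF1A exchange factor, was at 394, 228 and 208 against 436, 449.9 and 455 CPM without overlap (log2 fold change 0.69, SE 0.28, adjusted p = 0.123). Its partners Eef1b2 and Eef1d were at 511, 685 and 805 and 101, 210.5 and 169.6 CPM in MA-10 cells and at 553 to 602 and 134 to 145 CPM in STARKO1 cells. Eef1e1, named for its likeness to these subunits but part of a complex of tRNA synthetases, was at 20.4, 38.7 and 27.9 against 26.5 to 28.5 CPM. Without MA-10 replicate 1, 3 of the 6 genes passed, 2 higher and 1 lower, against 65.7% of all genes.

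Of the 7 enzymes that modify elongation factors, 6 were tested, and Eef2kmt was lower in STARKO1 cells. Eef2kmt (chr16:5244152-5255984, minus strand) encodes the methyltransferase of a lysine in eEF2. It was measured at 29.03, 69.6 and 50.5 CPM in MA-10 replicates 1, 2 and 3 and at 16.9, 18.9 and 15.1 CPM in the STARKO1 replicates. All MA-10 libraries lay above all STARKO1 libraries, replicate 1 by the least. The mean was 49.7 ± 20.3 CPM (SD, n = 3) in MA-10 and 16.98 ± 1.93 CPM (SD, n = 3) in STARKO1 cells, a log2 fold change of -1.55 (SE 0.32, adjusted p = 0.0357). Eef2kmt passed in 6 of 9 alternatives that kept every library and in 1 of 6 fits with a library removed, the one without MA-10 replicate 1 (-1.73). Without any other library the adjusted p was between 0.0652 and 0.177. In those fits between 0.730% and 4.19% of all tested genes passed, against 9.04% with all libraries. Against MA-10 replicate 1 alone the log2 fold change was -0.77.

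The other enzymes did not pass with edgeR. The lines did not overlap in 4 of them, against 42.5% of all tested genes. Eef1akmt2 and Eef1aknmt passed with DESeq2, against 22.7% of all genes. Eef1akmt2, a methyltransferase of eEF1A, was at 15.1, 92.02 and 58.6 CPM in MA-10 and 12.6, 11.5 and 13.03 CPM in STARKO1 cells (log2 fold change -2.15, SE 0.59, adjusted p = 0.0618). Eef1aknmt, which methylates the amino terminus and a lysine of eEF1A, was at 12.6, 3.38 and 4.14 against 20.003, 19.4 and 21.6 CPM (log2 fold change 1.58, SE 0.48, adjusted p = 0.0744). Both show MA-10 replicate 1 between the other MA-10 libraries and the STARKO1 libraries, in opposite directions. Eef2k, the kinase that switches eEF2 off, was at 14.8, 5.81 and 5.28 against 4.001, 4.13 and 3.31 CPM, and here MA-10 replicate 1 was furthest from the STARKO1 libraries. Eef1akmt4 was at 3.34, 1.82 and 2.64 against 4.12, 4.36 and 4.96 CPM without overlap, and Eef1akmt1 at 6.18, 13.5 and 7.66 against 9.14 to 11.2 CPM with overlap. Eef1akmt3 had 1 to 8 counts per library and was not tested. Leaving out MA-10 replicate 1, 4 of the 6 tested genes passed, 2 higher and 2 lower, against 65.7% of all genes.

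The 2 release factor genes were higher in all STARKO1 libraries than in all MA-10 libraries, MA-10 replicate 1 included, but did not pass with edgeR. Of all tested genes, 21.5% were higher without overlap. Both differed at an unadjusted p under 0.05 (37.6% of all genes) and passed with DESeq2 (22.7% of all genes). Etf1, which encodes eRF1 and reads the stop codon, was at 123, 127 and 119.8 CPM in MA-10 and 172, 169 and 174 CPM in STARKO1 cells. The mean was 123 ± 3.71 CPM (SD, n = 3) and 172 ± 2.54 CPM (SD, n = 3), and the log2 fold change was 0.48 (SE 0.15, adjusted p = 0.0732). Gspt1, which encodes the GTPase eRF3, was at 217, 171 and 183 against 289.7, 272 and 290.5 CPM (log2 fold change 0.58, SE 0.17, adjusted p = 0.0732). With MA-10 replicate 1 alone the log2 fold changes were 0.48 and 0.39, and without it 0.57 and 0.77. Both genes passed in edgeR's test without MA-10 replicate 1 (adjusted p = 0.00182 and 0.000593), against 65.7% of all genes. In both genes MA-10 replicate 1 was nearer to the other MA-10 libraries than to the STARKO1 libraries.

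All 64 genes together took 1.96%, 1.59% and 1.83% of all counts in MA-10 replicates 1, 2 and 3, against 2.02%, 2.05% and 2.03% in the STARKO1 replicates. The STARKO1 shares were above all MA-10 shares, replicate 1 by the least. As a share of protein-coding counts the values were 2.47%, 2.16% and 2.32% against 2.45%, 2.50% and 2.49%, and the lines then overlapped. The elongation factor genes took 0.735%, 0.408% and 0.494% of all counts in MA-10 and 0.713% to 0.730% in STARKO1 cells. The eIF3 genes took 0.416%, 0.434% and 0.572% against 0.425% to 0.449%.

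Many mRNAs of the translation machinery begin with a C followed by a run of pyrimidines, the terminal oligopyrimidine (TOP) motif, through which mTORC1 controls their translation. The annotated starts were searched for this motif, C at the first base followed by at least 4 bases that are C or T, on the strand of the gene. Of the 64 genes, 50 were found in the RefSeq promoter table (GRCm38.p6), and 2 of them, Eif2s3x and Eif3f, had the motif at an annotated start (4%). The share was 3.01% of all 27025 genes in that table and 21.9% of 64 cytosolic ribosomal protein genes (14). With the run allowed to begin within 10 bases of the start, the shares were 32%, 34.4% and 62.5%. Windows of 30 bases that begin 15 bases before the start, with the run in capitals, are shown for the 2 genes with the motif, for Eef1a1, the member with the highest level per length, whose run begins 5 bases before the annotated start, and for Eif1b and Eef2kmt, which were differentially expressed and hold no such run within 10 bases. Eif4ebp1 was not among the genes of the table.
Eif2s3x, chrX:94212637-94212666, minus strand: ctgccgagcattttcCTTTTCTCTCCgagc
Eif3f, chr7:108934400-108934429, plus strand: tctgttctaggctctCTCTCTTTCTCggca
Eef1a1, chr9:78481710-78481739, minus strand: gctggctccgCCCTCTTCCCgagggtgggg
Eif1b, chr9:120492591-120492620, plus strand: gcggcgcgcggggctaaatacgcggcgccg
Eef2kmt, chr16:5255942-5255971, minus strand: cgcccgtttccaggcaaccctggccctgcc

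In these windows only Eif2s3x and Eif3f carry the run at the start itself. Eif2s3x did not differ beyond the spread of the libraries (above), and Eif3f was at 76.3 to 122 CPM in MA-10 and 85.6 to 89.5 CPM in STARKO1 cells. The 80 ribosomal protein genes tested, most of which are known TOP mRNAs, had a median log2 fold change of -1.03. Of them 0 passed with edgeR, while 59 differed at an unadjusted p under 0.05 and 46 passed with DESeq2, 45 of them lower. The shares of all genes were 9.04%, 37.6% and 22.7% in the same order. With edgeR but without MA-10 replicate 1, 69 of 81 passed, 2 higher and 67 lower, against 65.7% of all genes. Annotated starts need not be the starts used in these cells, so the match describes the annotation only.

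Other genes of translation and its control, a list of 51 of which 50 were in the table and tested, were read in the same way. Of these, 3 passed (6%), 2 higher and 1 lower, against the 9.04% of all genes. Mknk1, a kinase that phosphorylates eIF4E, was at 47.99, 88.6 and 84.4 CPM in MA-10 and 21.8, 21.3 and 23.5 CPM in STARKO1 cells, giving a log2 fold change of -1.73 (SE 0.26, adjusted p = 0.0144). Dph1, an enzyme that makes the diphthamide residue of eEF2, was at 7.26, 4.73 and 3.94 against 11.1, 12.1 and 12.8 CPM, with a log2 fold change of 1.15 (SE 0.25, adjusted p = 0.0415). Dhps, which begins the hypusine modification of eIF5A, was at 18.4, 14.8 and 15.9 against 26.2, 25.2 and 27.02 CPM, with a log2 fold change of 0.67 (SE 0.16, adjusted p = 0.0457). In the 3 genes all libraries of one line lay on one side of the other line, against 42.5% of all tested genes. With 1 library left out, Mknk1 passed in 2 of 6 edgeR fits and Dph1 and Dhps in 1 of 6 each. With the replicate number as a block in edgeR, the adjusted p was 0.0391 for Mknk1, 0.0932 for Dph1 and 0.115 for Dhps. The median log2 fold change of the list was -0.02. Leaving out MA-10 replicate 1, 41 of the 50 passed, 20 higher and 21 lower, against 65.7% of all genes.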

How the data were processed

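RNA of MA-10 and STARKO1 cells was measured in 6 libraries, 3 per line, for which a stranded kit was applied to total RNA. The authors deposited estimated counts per gene that were not normalized, 1 column per replicate. The submitters' processing notes name STAR 2.6.1d, Partek and mm10, and the counting settings are not given in the sources used here. Each of the 14774 genes had at least 10 counts over the libraries. Of the 64 translation factor genes, 33 had a value more than 0.05 from a whole number, against 24.0% of all genes. Such values can arise when reads that fit several genes are divided, but the sources do not say whether this was done. Libraries were grouped by the labels, which give each title its line and replicate number.

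Here these counts, rounded to integers, entered edgeR 4.0.16 in R 4.3.3 (filterByExpr, TMM, glmQLFit and glmQLFTest) for all genes, with Benjamini-Hochberg adjustment and calls at an adjusted p under 0.05. The standard error is the log2 fold change divided by the square root of F. CPM are relative to the TMM-scaled library size, and exon lengths and coding sequences came from GENCODE M21 on GRCm38 (63 of the 64 genes matched). DESeq2 1.42.0, RLE and library size scaling, protein-coding rows only, other filters on low counts, gene length offsets, a replicate block, a threshold of 0.1 and leaving out each library were the alternatives. MA-10 replicate 1 alone and the summed Eif3j genes were added after seeing the data. The members, role groups and lists were chosen with earlier results of these data known. Genes named in full were those called, the extremes of each role group, paralogue pairs, the first uncalled gene and those not tested. The scripts were tested on simulated data. Python 3.11.15 with matplotlib 3.10.9, pandas 2.3.3, biopython 1.88 and numpy 2.4.6 served for tables, sequences and figures. Depth leaves little counting error for most genes, and the common coefficient of variation between libraries was 0.291.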

Additional observations from a re-analysis of the deposited data

How the results depend on the processing

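Of the 62 genes, 3 passed as reported. The number was 16 with DESeq2 (of 64), 1 with libraries scaled by size alone, 5 with protein-coding rows only, 16 at an adjusted p under 0.1, and between 0 and 45 when 1 library was left out. It was 0 without MA-10 replicate 3 and without STARKO1 replicate 1, 2 or 3, when 12, 15, 9 and 8 genes differed at an unadjusted p under 0.05 in edgeR, 1 without MA-10 replicate 2 and 45 without MA-10 replicate 1. With MA-10 replicate 1 alone it was 35. Over all genes, 1079 passed as reported, 3349 with DESeq2, 330 with scaling by size alone, 695 with at least 10 counts in every library, 3471 at an adjusted p under 0.1, 5086 with MA-10 replicate 1 alone, and between 89 and 7990 without 1 library. Of the other translation genes, 3 passed as reported, 14 with DESeq2, 20 at an adjusted p under 0.1, 29 with MA-10 replicate 1 alone and between 0 and 41 without 1 library. The median log2 fold change of the members, -0.24, became 0.24 with scaling by size alone. That scaling moved the median of all genes from -0.05 to 0.38. With MA-10 replicate 1 alone the median of the members was 0.14, against 0.0030 for all genes. The causes were not tested.

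With the replicate number as a block, 1 member, Eif1b (adjusted p = 0.0357), 1 of the other translation genes and 234 genes in all passed, and with the block and gene length offsets 1, 1 and 237. The correlation of deviations between same-numbered libraries was -0.02, 0.05 and 0.02, so the numbers were not taken to pair the libraries.

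Over the 29 members whose fold change is named and their alternatives, 394 values kept their direction and side of the threshold, 56 passed newly, 23 no longer passed and 20 changed sign. With scaling by size alone, the log2 fold changes became 0.21 (Eef1a1), 0.46 (Eif4e) and 0.0072 (Eif6). Eif4e, at -0.03, became 0.0052 with DESeq2, 0.018 with protein-coding rows only, 0.031 without a filter, and -0.063 to 0.13 without 1 library. In the fits that left out 1 library, Eif5a ranged from -0.027 (without MA-10 replicate 1) to 0.19. It was 0.36 with MA-10 replicate 1 alone. With MA-10 replicate 1 alone, the log2 fold changes were 0.40 (Eif1ax), 0.079 (Eif2ak2), 0.21 (Eif2s2), 0.41 (Eif3g), 0.55 (Eif3j1), 0.26 (Eif4e), 0.54 (Eif4e2), -0.082 (Eif4ebp2) and 0.42 (Eif6). Eif3j2 became -1.25 when summed with Eif3j1.

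Eif1b rests on 13 to 24 counts per STARKO1 library, and Eef1akmt3 and Eif4g3 had too few counts for a test. A fit that leaves 1 MA-10 library assumes that it varies like the STARKO1 libraries.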
